A study of Homo sapiens with 9 samples.

Results

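The genes described here are 10 factors that carry cells from G1 into S phase, taken as the rows of the deposited count table for CCND2, CCND3, CDK4, CDK6, CCNE1, CCNE2, E2F1, E2F2, E2F8 and RB1. All 10 were among the 25370 gene symbols of the table, and 9 of them passed the filter on low counts that left 15089 genes for testing; CCND2 did not. RNA was sequenced from OCI-Ly1, an established human line from a diffuse large B-cell lymphoma, which limits the data to 1 line. The cells were kept for 48 h with DMSO, the vehicle, or with JIB-04, which inhibits histone demethylases of the Jumonji family, at 150 or 500 nM. Each of these groups has 3 libraries, 9 in all. The study's title names KDM4A and KDM4C of that family in this lymphoma, and the comparison asked here is how the RNA of the G1/S factors differed between the doses and the vehicle.

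In G1, D-type cyclins bind CDK4 or CDK6, and these kinases phosphorylate the retinoblastoma protein RB1, which holds E2F transcription factors inactive. Released E2F1 and its relatives switch on the genes of DNA replication and also those of the E-type cyclins, which with CDK2 complete the phosphorylation of RB1. E2F8 belongs to the atypical E2Fs, which bind the same sites without RB1 and repress them late in S phase. Germinal-centre B cells, the normal counterparts of many of these lymphomas, divide fast and use CCND3 as their main D-type cyclin.

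At 500 nM the E-type cyclin genes moved in opposite directions: CCNE2 rose by 0.44 ± 0.07 (SE) on the log2 scale and CCNE1 fell by 0.38 ± 0.07. CDK6 (0.26 ± 0.05) and E2F1 (0.22 ± 0.06) rose as well, E2F1 not beyond the threshold once GC trends were removed (0.08, adjusted p = 0.104). CDK4, CCND3, E2F2, E2F8 and RB1 did not pass the test, and CCND2 was at or near 0 throughout. At 150 nM none of the 9 tested genes passed it. All of these changes were under 2-fold. Of all 15089 tested genes, 52% passed the test at 500 nM and 1.27% at 150 nM.

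Library totals ran from 28476845 to 57198613 counts, and the 10 genes' values below are in CPM, the count relative to a library total scaled by TMM (trimmed mean of M-values). A gene was called at a Benjamini-Hochberg adjusted p under 0.05 in edgeR's quasi-likelihood test over all tested genes, and ± after a log2 fold change is its standard error with 3 libraries a group. The B-cell label held: all 8 B-cell markers had counts, summing to 2113 to 2169 CPM in DMSO, 2104 to 2198 at 150 nM and 1742 to 1801 at 500 nM, and 4 of the 8 fell and 1 rose at 500 nM (4 and 3 with total-count scaling). The 10 markers of T cells, myeloid, natural killer, stromal, epithelial, endothelial and red cells summed to 14.9 to 17.2 CPM in DMSO. These sums were 12.9 to 14.5 at 150 nM and 8.01 to 8.52 at 500 nM. The highest in DMSO were CD3D (mean 5.72 CPM), EPCAM (5.37) and PECAM1 (3.65). Of the 6 that were tested, 3 were called lower at 500 nM and 0 higher. HBB was at 0 in every library and COL1A1 in all DMSO and 150 nM libraries (8 to 10 counts at 500 nM). The part of these levels in the results was not tested. Across genes, 150 nM replicate 1 correlated with DMSO replicate 1 at r = 0.9912, against 0.9916 and 0.9902 with the other libraries of its own group. For 150 nM replicate 2 these values were 0.9906, against 0.9916 and 0.9912. DMSO replicate 1 correlated with DMSO replicate 2, the library with the smallest total, at 0.9879, and with the 150 nM libraries at 0.9892 to 0.9912. CDKN1A, the p21 gene that rose at 150 nM, was at 43.1 CPM in 150 nM replicate 1 and at 41.6 and 38.0 CPM in replicates 2 and 3. Calls of the 10 genes that change without 150 nM replicate 1 are given with and without it. Nothing in the labels ties replicates to cultures of their own, and the p-values therefore reflect the variation among these libraries, which may be technical. RNA of a whole culture does not tell a shift in the share of cells in a cycle phase apart from a change in RNA per cell.

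Promoter windows are shown for the pair of members in which E2F motif letters were found and for CCNE1, the member that fell. RefSeq's promoter table (GRCh38.p14, 250 bases before to 50 after a gene's start) held 7 of the 10 genes. CCND2, CCNE2 and E2F8 had no entry, so they were not searched for motifs. The RB1 window lies far downstream of the gene's first annotated exon and was not used. The E2F motif was searched on both strands as TTTGGCGC, TTTCCCGC, TTTCGCGC or TTTGCCGC, and its matches are in capitals. Of all 35116 windows of this length 3.3% hold a match, and of those of tested genes 4.7%.
E2F1, chr20:33686336-33686635, minus strand: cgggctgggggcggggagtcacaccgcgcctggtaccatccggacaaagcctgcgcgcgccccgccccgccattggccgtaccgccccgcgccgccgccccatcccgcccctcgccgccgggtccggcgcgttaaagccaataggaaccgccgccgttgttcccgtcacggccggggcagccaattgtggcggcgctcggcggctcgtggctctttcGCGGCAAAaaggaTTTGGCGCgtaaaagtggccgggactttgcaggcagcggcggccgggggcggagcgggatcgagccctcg
E2F2, chr1:23531184-23531483, minus strand: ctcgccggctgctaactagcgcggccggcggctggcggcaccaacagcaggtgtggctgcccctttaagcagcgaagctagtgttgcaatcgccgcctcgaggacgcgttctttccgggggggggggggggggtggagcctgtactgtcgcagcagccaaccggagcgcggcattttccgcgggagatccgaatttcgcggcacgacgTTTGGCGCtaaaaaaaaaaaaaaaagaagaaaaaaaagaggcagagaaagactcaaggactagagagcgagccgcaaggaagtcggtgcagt
CCNE1, chr19:29811741-29812040, plus strand: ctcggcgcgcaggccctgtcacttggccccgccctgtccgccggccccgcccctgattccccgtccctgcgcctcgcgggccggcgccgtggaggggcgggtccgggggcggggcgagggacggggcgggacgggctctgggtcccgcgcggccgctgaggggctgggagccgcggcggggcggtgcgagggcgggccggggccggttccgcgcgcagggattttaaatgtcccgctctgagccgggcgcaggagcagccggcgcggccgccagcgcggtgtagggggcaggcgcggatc

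The E2F1 window holds 2 matches, starting 33 and 20 bases before the start site, the first on the opposite strand, and 3 CCAAT letters and 6 GGGCGG letters of the kinds bound by NF-Y and SP1. The E2F2 window holds 1 match, 42 bases before the start. CCNE1 has none of these E2F letters in its window, which has 7 GGGCGG matches and a GC content of 81.0%. GGGCGG occurs in 45.0% of all windows and in 63.1% of those of tested genes, and CCAAT in 34.6% of either, so these 2 are common letters. Of the pair with E2F letters, E2F1 was called at 500 nM and E2F2 was not, a difference that was not itself tested, and a match describes the sequence only.

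Levels were compared between genes only per length, as CPM per kb of the longest coding transcript of GENCODE 29. In DMSO the order was CDK4 (126 ± 10.5, SD, n = 3), CCNE2 (67.1 ± 3.196), E2F1 (58.1 ± 2.80), CDK6 (39.6 ± 1.58), E2F2 (29.9 ± 2.43), CCNE1 (21.5 ± 0.659), E2F8 (15.4 ± 0.682), CCND3 (12.5 ± 0.619) and RB1 (4.19 ± 0.30), with CCND2 at 0.00716. No 2 neighbours of this order overlapped between their DMSO libraries. With the length of all annotated exons in place of the longest transcript, E2F1 (58.1) stood above CCNE2 (50.8), so the order of this pair depends on the length used. At 500 nM CCNE1 (16.5 ± 0.651) and E2F8 (16.5 ± 0.605) overlapped, while CCNE1 lay above E2F8 in DMSO.

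**Figure D1:**
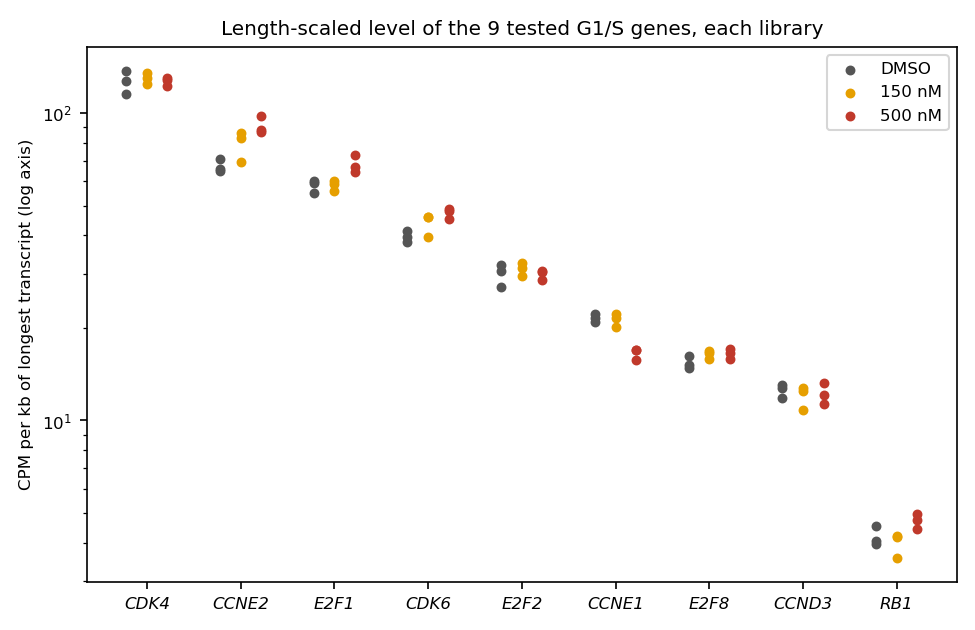
Length-scaled level (CPM per kb of the longest transcript, log axis) of the 9 tested genes in every library, ordered by their DMSO mean; grey points are DMSO, orange 150 nM and red 500 nM. CDK4 is highest and RB1 lowest, and CCNE1 drops to the level of E2F8 at 500 nM.

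Among the D-type cyclins, which start the pathway by activating CDK4 and CDK6, only CCND3 was measured above trace level. CCND2 had 6, 0 and 0 counts in the DMSO libraries, 6, 0 and 2 at 150 nM and 8, 2 and 8 at 500 nM. As group sums this is 0.053 CPM (exact 95% Poisson interval 0.0195 to 0.115) in DMSO, 0.0691 (0.0298 to 0.136) at 150 nM and 0.113 (0.0671 to 0.179) at 500 nM, intervals that overlap and cover counting error only. CCND1, the other D-type cyclin gene and not one of the 10, had 4 counts in the DMSO libraries together, 0 at 150 nM, which allows up to 0.0259 CPM (3 counts, a one-sided limit), and 13 at 500 nM. CCND3 stood at 30.5, 31.1 and 28.3 CPM in DMSO, 30.6, 29.8 and 25.9 at 150 nM and 27.2, 29.1 and 31.6 at 500 nM. The 3 groups overlapped fully. Its log2 fold change was -0.06 ± 0.09 at 150 nM (adjusted p = 0.882) and -0.03 ± 0.08 at 500 nM (adjusted p = 0.77), with a 95% interval of -0.21 to 0.14 at 500 nM.

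Of the kinases CDK4 and CDK6, the catalytic partners of these cyclins, CDK6 was called at 500 nM and CDK4 was not, and the difference between their changes was not tested. CDK6 was at 458, 442 and 479 CPM in DMSO, 458, 535 and 533 at 150 nM and 524, 564 and 558 at 500 nM. Every 500 nM library lay above every DMSO library, and at 150 nM replicate 1 lay among the DMSO libraries while the other 2 lay above them. CDK6 rose by 0.26 ± 0.05 at 500 nM (adjusted p = 0.000275), a 1.19-fold change, and the call held under all 19 alternatives. At 150 nM its log2 fold change was 0.15 ± 0.05, which was not called (adjusted p = 0.286). Without 150 nM replicate 1 it was 0.22 and called (adjusted p = 0.00595). The other 18 alternatives left it uncalled, with values down to 0.10 and an adjusted p up to 0.797. CDK4 was at 264, 284 and 240.0 CPM in DMSO, 279, 269 and 257 at 150 nM and 271, 254 and 266 at 500 nM. Its 3 groups overlapped, with log2 fold changes of 0.03 ± 0.06 (adjusted p = 0.902) and 0.01 ± 0.06 (adjusted p = 0.939), and a 95% interval at 500 nM of -0.11 to 0.12. On the other strand TSPAN31 shares 1369 of the 3168 annotated exon bases of CDK4, and no source used here names the strand setting of the counts; TSPAN31 was at 11.8 CPM in both DMSO and 500 nM.

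RB1, the target of these kinases, was at 19.0, 19.5 and 21.7 CPM in DMSO, 17.1, 19.96 and 20.2 at 150 nM and 21.3, 22.7 and 23.9 at 500 nM. The DMSO and 500 nM libraries overlapped by 1 library, DMSO replicate 3. Neither dose was called against DMSO (log2 fold change -0.08 ± 0.09, adjusted p = 0.846, and 0.17 ± 0.09, adjusted p = 0.125). Between the doses RB1 was called higher at 500 nM (0.25 ± 0.09, adjusted p = 0.0299), a call lost without 150 nM replicate 1 (0.17, adjusted p = 0.165), 500 nM replicate 2 (0.24, adjusted p = 0.066) or 500 nM replicate 3 (0.21, adjusted p = 0.123).

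**Figure D2:**
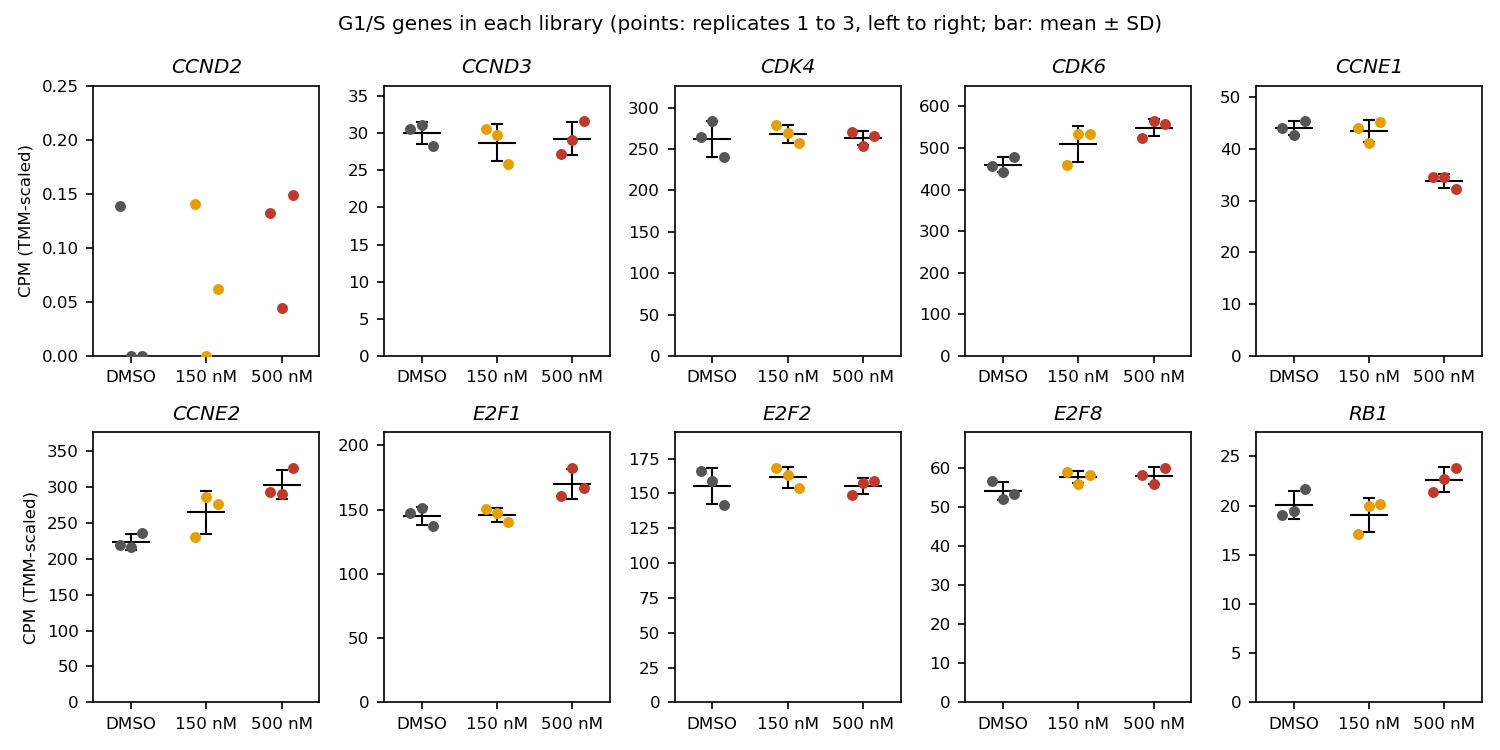
CPM of each of the 10 genes in every library (y axes from 0, x axis the 3 groups, points replicates 1 to 3 from left to right, bars mean ± SD; CCND2 is drawn without a bar). CCNE1 is lower in all 500 nM libraries, CCNE2 and CDK6 are higher in them, and 150 nM replicate 1 lies near DMSO for CCNE2 and CDK6.

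The E-type cyclins activate CDK2 at the entry into S phase. CCNE2 was at 219, 216 and 236 CPM in DMSO, 231, 286 and 276 at 150 nM and 293, 290 and 327 at 500 nM. All 500 nM libraries lay above all others, and at 150 nM replicate 1 again lay within the DMSO range. The rise at 500 nM was 0.44 ± 0.07, or 1.36-fold (adjusted p = 3.6e-06), and it held under all 19 alternatives (0.38 to 0.58). At 150 nM CCNE2 had the smallest p of the 9 tested genes, with a log2 fold change of 0.24 ± 0.07 and an adjusted p of 0.0726; over the alternatives the adjusted p ranged from 5e-05, without 150 nM replicate 1 (0.33), to 0.476, without 150 nM replicate 2 (0.18). Between the doses it was called higher at 500 nM (0.20 ± 0.07, adjusted p = 0.015), though not without 150 nM replicate 1 (0.11, adjusted p = 0.108) or 500 nM replicate 3 (0.14, adjusted p = 0.121). INTS8, a subunit gene of the Integrator complex on the other strand, shares 1629 of the 4397 exon bases of CCNE2, so unstranded reads of both genes could not be told apart there. INTS8 went the other way at 500 nM, from 481 to 401 CPM (-0.26 ± 0.05, adjusted p = 0.000128); it is named because of the overlap, after its values were seen.

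CCNE1 was at 44.0, 42.6 and 45.3 CPM in DMSO, 44.1, 41.2 and 45.3 at 150 nM and 34.5, 34.6 and 32.2 at 500 nM. The 500 nM libraries lay below all 6 others, and the DMSO and 150 nM libraries overlapped. It fell by 0.38 ± 0.07 on the log2 scale at 500 nM (adjusted p = 6.3e-05), to 0.767 of the DMSO level, and under the alternatives by 0.24 to 0.41. At 150 nM the value was -0.02 ± 0.07 (adjusted p = 0.963), and the log2 fold change of 500 against 150 nM was -0.36 ± 0.07 (adjusted p = 0.000139). The ratio of CCNE2 to CCNE1 within a library, per kb, does not depend on how libraries are scaled. It was 3.05 to 3.19 in DMSO, 3.21 to 4.26 at 150 nM and 5.14 to 6.21 at 500 nM, so the groups did not overlap. As this pair was chosen with its values known, the ratio is given with no test.

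**Figure D3:**
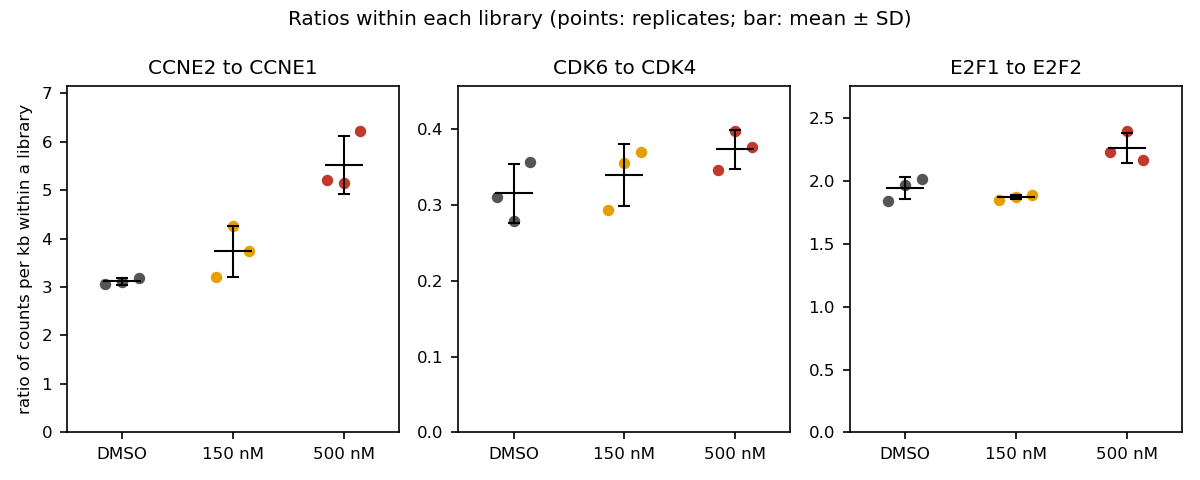
Ratio of counts per kb within each library (y axes from 0) for CCNE2 to CCNE1, CDK6 to CDK4 and E2F1 to E2F2 in the 3 groups; points are libraries, bars mean ± SD. The CCNE2 to CCNE1 ratio goes from 3.11 in DMSO to 5.52 at 500 nM, while the CDK6 to CDK4 ratios of DMSO and 500 nM overlap.

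For the other pairs, CDK6 to CDK4 was 0.279 to 0.357 in DMSO and 0.346 to 0.397 at 500 nM, which overlap. E2F1 to E2F2 was 1.85 to 2.02 in DMSO, 1.85 to 1.89 at 150 nM and 2.17 to 2.40 at 500 nM, where the highest dose stood apart. The remaining ratios overlapped between DMSO and 500 nM. E2F1 to E2F8 was 3.62 to 4.06 in DMSO and 3.87 to 4.60 at 500 nM. E2F1 to RB1 was 12.1 to 14.9 and 13.4 to 15.4, and E2F8 to E2F2 was 0.485 to 0.557 and 0.522 to 0.577. These ratios were not adjusted for GC content and were not tested.

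E2F1 and E2F2 are activating E2Fs that bind RB1. E2F1 was at 148, 151 and 137 CPM in DMSO, 151, 147 and 140.0 at 150 nM and 160.3, 183 and 167 at 500 nM. The 500 nM libraries lay above all others. E2F1 rose by 0.22 ± 0.06 at 500 nM (adjusted p = 0.00174), a 1.17-fold change, and its value at 150 nM was 0.01 ± 0.06 (adjusted p = 0.978). E2F1 has the most GC-rich transcript of the 10, at 62.5%, and with each library's trend on GC content removed its change at 500 nM was 0.08 and not called (adjusted p = 0.104); the other 18 alternatives kept the call. The call between the doses (0.22 ± 0.06, adjusted p = 0.00282) was lost there too (0.04, adjusted p = 0.416). E2F2 was at 166, 159 and 141 CPM in DMSO, 169, 163 and 154 at 150 nM and 149, 158 and 159 at 500 nM, with all groups overlapping. Its log2 fold changes were 0.06 ± 0.06 (adjusted p = 0.805) and 0.00 ± 0.06 (adjusted p = 0.998, 95% interval -0.12 to 0.12 at 500 nM).

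E2F8, a repressor of E2F target genes, was at 56.8, 52.2 and 53.4 CPM in DMSO, 59.1, 55.9 and 58.1 at 150 nM and 58.3, 55.9 and 60.1 at 500 nM. Only DMSO replicate 1 reached into the range of the treated libraries. Neither change was called (0.09 ± 0.07, adjusted p = 0.695, and 0.10 ± 0.07, adjusted p = 0.204).

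**Figure D4:**
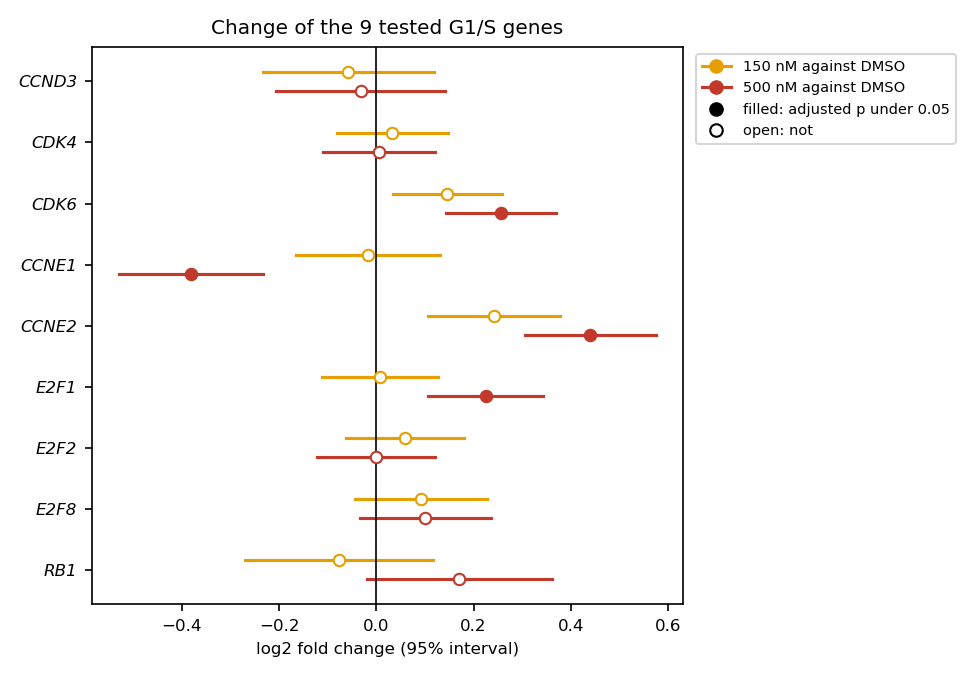
Log2 fold change against DMSO (x axis) of the 9 tested genes with 95% intervals, 150 nM in orange and 500 nM in red; filled points have an adjusted p under 0.05. CCNE2, CDK6 and E2F1 lie right of 0 and CCNE1 left of it at 500 nM, and none is filled at 150 nM.

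Counted together, edgeR called 0 of the 9 tested members at 150 nM, where 1.27% of all tested genes were called (0.954% higher and 0.318% lower, 0.272% at 2-fold or more); 2 had an unadjusted p under 0.05 (CCNE2 and CDK6), DESeq2 called 1 and limma-voom 0. No member had DMSO and 150 nM libraries apart without overlap, as 13.7% of tested genes did. At 500 nM 3 rose and 1 fell, against 52% of all tested genes called (26.3% higher and 25.6% lower; with total-count scaling 69.5% of called genes were higher in place of 50.7%). So 4 of 9 is near the background, and the count says nothing particular about the G1/S genes. No member was called at 2-fold or more, where 10.2% of tested genes were. The median size of the change, in either direction, was 0.17 on the log2 scale for the 9 members and 0.32 over all tested genes, and the signed medians were 0.10 and 0.01. At 150 nM the median sizes were 0.058 and 0.093. The 9 members were at 17.1 CPM or more in every library, while only 12910 of the genes reached 1 CPM in 3 libraries. The medians were not compared at like levels. In 4 members the DMSO and 500 nM libraries did not overlap, as in 59.2% of tested genes. For 500 against 150 nM, 3 rose (CCNE2, E2F1 and RB1) and 1 fell (CCNE1), with 46.5% of tested genes called (23.7% higher, 22.8% lower and 7.72% at 2-fold or more). These 4 were also the members whose libraries did not overlap, as in 55% of tested genes. The doses share their DMSO libraries, and the 2 comparisons with 150 nM share that group.

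The wider pathway was described by lists drawn up with earlier results of these data known, and each count at 500 nM stands beside the 52% of all tested genes called there. Of 6 tested CDK inhibitor genes 1 was called at 150 nM, CDKN1A, which rose by 1.14 ± 0.07 (adjusted p = 1.13e-11). At 500 nM 4 rose and 1 fell. CDKN1A, encoding p21, went from 18.5 to 143 CPM (2.95 ± 0.07), CDKN2B, encoding the CDK4 and CDK6 inhibitor p15, from 5.18 to 12.1 CPM (1.23 ± 0.13), and CDKN1B, encoding p27, rose by 0.34 ± 0.07; CDKN2C, encoding p18, fell by 0.44 ± 0.07. The list's median was 0.26, against 0.01 over all tested genes, and with GC trends removed 3 rose and 1 fell.

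Among 12 tested other cyclins, CDKs and activators of G1/S none was called at 150 nM, and 3 rose and 4 fell at 500 nM (median -0.03). CKS2, a CDK-binding subunit gene, fell by 0.61 ± 0.05, CCNA2, the S-phase cyclin that follows the E-type cyclins, from 222 to 149.7 CPM (-0.57 ± 0.06), and SKP2, whose ubiquitin ligase degrades p27, by 0.49 ± 0.06. CKS1B, the paralog of CKS2, rose by 0.32 ± 0.06, MYC by 0.27 ± 0.05, and FBXW7, whose ligase degrades cyclin E, by 0.26 ± 0.07. Under total-count scaling, which moves the median of all genes to 0.15, 5 of the 12 were called higher and 3 lower.

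Of the 9 other E2F, DP and pocket protein genes none was called at 150 nM, and 1 rose and 5 fell at 500 nM (median -0.20, and 1 and 4 with total-count scaling). Over all tested genes 52% were called at 500 nM, 26.3% higher and 25.6% lower. E2F7, the second atypical E2F, rose by 0.47 ± 0.07, while E2F8 was at 0.10 and not called; the difference between them was not tested. E2F5 fell by 0.64 ± 0.06, and the dimerization partners of the E2Fs, TFDP2 and TFDP1, fell by 0.33 ± 0.04 and 0.30 ± 0.05. Of 8 genes of the MuvB complex, MYB family and FOXM1, none was called at 150 nM and 3 rose and 1 fell at 500 nM (median 0.02; 4 and 1 with total-count scaling). LIN37 rose by 0.80 ± 0.14, LIN52 by 0.27 ± 0.09 and LIN54 by 0.23 ± 0.07, and MYBL1 fell by 0.57 ± 0.09. The genes that rose encode subunits of the MuvB core. LIN9 and RBBP4, the core's other subunit genes on the list, were not called (56.2 to 56.8 CPM and 423 to 399 CPM). The LIN52 call was lost on leaving out replicate 1 of DMSO (adjusted p = 0.105), or replicate 1 or 3 of 500 nM (adjusted p = 0.0701 and 0.084). The LIN54 call was lost on leaving out replicate 2 of DMSO (adjusted p = 0.0756) or replicate 3 of 500 nM (adjusted p = 0.0527).

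The downstream readout of the pathway is a set of 30 S-phase genes known as E2F targets. None was called at 150 nM by edgeR. DTL, which directs the destruction of the licensing factor CDT1, was nearest there (0.19 ± 0.06, adjusted p = 0.101); it was called with DESeq2 (adjusted p = 0.036), no filter (0.0349), the replicate block (0.0399) or GC trends removed (0.0165), and without DMSO replicate 3 (0.0235) or 150 nM replicate 1 (0.0155). At 500 nM 4 of the 30 rose and 9 fell, where 26.3% of all tested genes rose and 25.6% fell, and the list's median was -0.01; with total-count scaling the split turned to 15 higher and 4 lower, on a median of all genes of 0.15, and with GC trends removed 9 rose and 12 fell. At this dose DTL rose by 0.52 ± 0.06, CDC45, a helicase subunit gene, by 0.36 ± 0.05 and POLE by 0.22 ± 0.06. RFC3, of the clamp loader, fell by 0.62 ± 0.06, the ribonucleotide reductase gene RRM1 by 0.45 ± 0.05 and GINS1 by 0.39 ± 0.07. These 30 genes included called members in both directions, as did the full table.

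**Figure D5:**
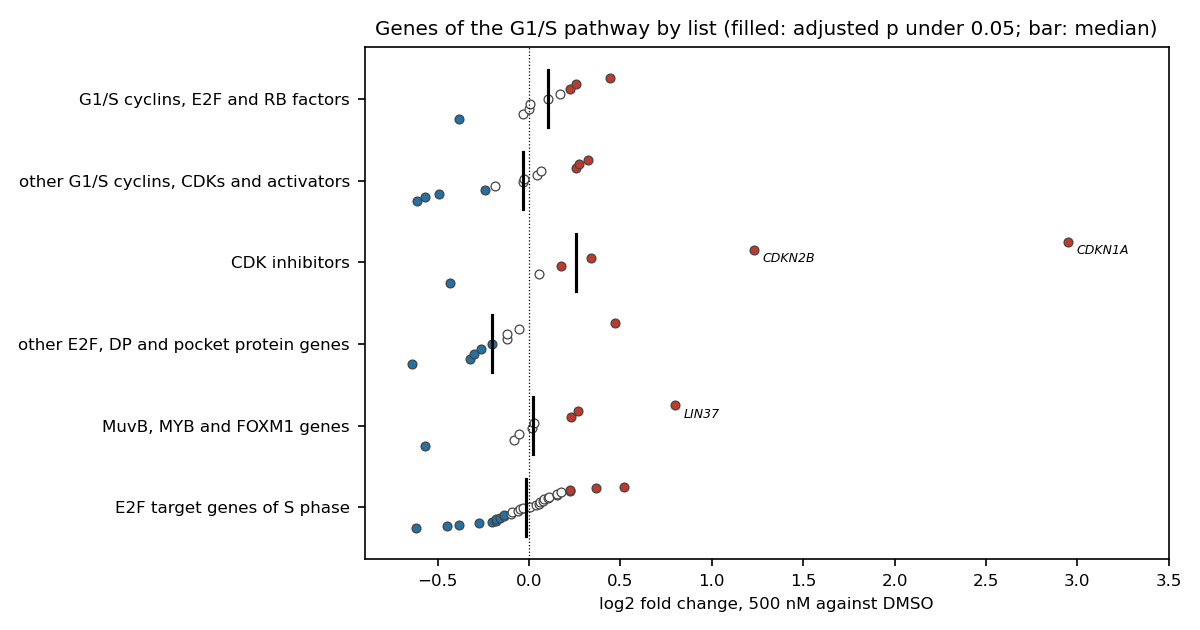
Log2 fold change at 500 nM against DMSO (x axis) of the tested genes of each list (rows); filled points have an adjusted p under 0.05, red higher and blue lower, and bars are list medians. CDKN1A at 2.95 lies to the right of all other points, and the 9 tested genes of the top row lie between -0.38 and 0.44.

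Over the 9 libraries, which form 3 dose groups, the gene whose log2 CPM was most like a member's was HECTD3 for E2F1 (Pearson r = 0.993), CKAP5 for CCNE1 (0.989), GGH for CCNE2 (0.988) and BRIP1 for CDK6 (0.978). For the members that were not called against DMSO the closest genes were TMEM237 for RB1 (0.967), SYNPO2L for CCND3 (0.961), RMDN3 for CDK4 (0.956), ERAL1 for E2F8 (0.927) and FUOM for E2F2 (0.917). Among the members, CDK6 and CCNE2 were most alike (r = 0.957), and CCNE1 ran most against E2F1 (r = -0.863). The search for the closest genes left out symbols of unnamed loci, clones, open reading frames, small RNAs, LINC and antisense genes. All these correlations describe 9 points that share their library scaling, picked from many genes, and carry no test.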

How the data were processed

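RNA of OCI-Ly1 cells in 3 groups of 3 libraries was measured, with ribosomal RNA removed per the labels' protocols. The authors deposited raw counts of reads per gene symbol. The submitters' processing notes name Subread, featureCounts 1.4.6, Bowtie2 2.2.6 and TopHat2 2.0.14 with the builds hg19 and mm10, and no roles; no source used here names the annotation or strand setting. Promoters (GRCh38.p14) and transcript lengths and GC content (GENCODE 29, GRCh38), which 95.6% of tested genes have, are of another build. The coordinates printed are those of promoter windows on GRCh38, not of the regions in which reads were counted.

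Genes passing filterByExpr (at least 10 counts by its rule, 15 in total) were scaled by TMM and fitted with edgeR 4.0.16 in R 4.3.3 (robust quasi-likelihood, all 9 libraries, 3 contrasts, Benjamini-Hochberg over 15089 genes, threshold 0.05). Standard errors come from the unshrunk change and its F statistic. As a check for a library deposited more than once, chi-square per degree of freedom between 2 libraries of a group was 6.59 to 16.05, and no library was dropped; this does not show separate cultures. Alternatives were DESeq2 1.42.0, limma-voom (limma 3.58.1), other scalings and filters, fits of 6 libraries, the replicate block, leaving out each library or the 20 most abundant genes, and removal of GC trends (lowess, span 0.3).

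The members and lists were chosen with earlier results of these data known. Genes are named by rule: the 10 members, CDKN1A and CCND1, and the gene most like each member. Each list adds up to 3 called genes per direction with the smallest adjusted p at 500 nM, and up to 2 at 150 nM. Outside this rule, LIN9 and RBBP4 are named beside the called MuvB genes, and TSPAN31 and INTS8 for their exon overlap. Some cell type markers are named for the check of the label.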

Additional observations from a re-analysis of the deposited data

How the results depend on the processing

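Of the 9 tested members and the called list genes named by rule, none reversed a call under any alternative run. Other genes named in the text, such as LIN9 and RBBP4, were not part of this check. The members called against DMSO at 500 nM (3 higher, 1 lower) were the same under each library left out; 6 were called higher with total-count scaling, which adds CDK4 (0.15), E2F8 (0.24) and RB1 (0.31) while moving the median of all genes to 0.15. With GC trends removed 4 were higher, RB1 (0.20) and E2F8 (0.15) being added and E2F1 lost. At 150 nM no member was called lower under any alternative, and 1 was called higher, CCNE2 each time, with DESeq2, total counts, no filter, or GC trends removed, and 0 to 2 when 1 library was left out. Genes called at 150 nM numbered 192, and 290 with DESeq2, 320 with no filter, 101 in the fit of the 6 libraries compared, 360 with GC trends removed and 98 to 545 when 1 library was left out (lowest without 150 nM replicate 2, highest without 150 nM replicate 1, and 107 without DMSO replicate 2). For 500 against 150 nM, 3 members were called higher and 1 to 3 when 1 library was left out (1 without 150 nM replicate 1 or 500 nM replicate 3); with GC trends removed 2 were called lower, E2F2 (-0.15) with CCNE1. The cause of these shifts was not tested, other than that the 6-library fit has fewer samples. With the replicate number as a block 308 genes and 1 member (CCNE2, adjusted p = 0.00714) were called at 150 nM. With this block CDK6 was called higher at 500 than at 150 nM (0.11, adjusted p = 0.0494). That CDK6 call was also made with GC trends removed (0.18, adjusted p = 0.000111) and with total counts (0.23, adjusted p = 0.000681). The other 16 alternatives left it uncalled, as did the main fit. In deviations from group means, same-numbered DMSO and 150 nM libraries correlated at 0.0126 to 0.104, and different-numbered ones at -0.0829 to 0.00814. For pairs with a 500 nM library these ranges were -0.0525 to 0.00362 and -0.0174 to 0.0352. The labels name no pairs, whether the numbers mark pairs was not tested, and the main fit has no block. Depth limits CCND2, with 6 to 18 counts a group.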

Other observations

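In every library the count 2 occurred in more genes than the count 1, for example in 728 against 334 genes in DMSO replicate 1 and in 496 against 179 in 500 nM replicate 2. All nonzero counts of CCND2 were even (2, 6 or 8). Counting intervals treat single counts as independent. No source used here says how the reads of a pair were counted.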
